A study of Mus musculus with 7 samples.

Results

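Expression of the genes for cholesterol and fatty acid synthesis was measured by bulk RNA sequencing of aged mouse skin. The set held 28 genes, taken by symbol for their place in the pathway. The rule used no measured value, but the genes were chosen with earlier results of these data known. It comprised 7 enzymes of the mevalonate steps, 11 enzymes of squalene and sterol synthesis, 6 genes that regulate the pathway through SREBP or carry sterols, and 4 enzymes of fatty acid synthesis. All 28 were found among the 55450 gene identifiers of the count table, and all 28 were among the 17959 genes with enough counts to be tested. The 7 mevalonate and 11 squalene and sterol enzymes are together called the sterol arm, and the 4 fatty acid enzymes the fatty acid arm.

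The skin came from wild-type male C57BL/6 mice aged 24 months. Dorsal hair was removed by clipping and a depilatory lotion, and the treatment was put on the skin each day for 5 days under a semi-occlusive dressing. The groups were 4 mice given the vehicle DMSO (mice 480, 481, 482 and 483) and 3 mice given 5 μM ABT-263 (mice 476, 477 and 478), and both groups shared the hair removal and the dressing. ABT-263, or navitoclax, inhibits anti-apoptotic proteins of the Bcl-2 family and is used as a senolytic, a drug meant to kill senescent cells. Whole skin was homogenized, so each library mixed epidermis, glands, dermis, fat and the muscle beneath, and fewer cells of a type and less RNA per cell cannot be told apart. Total counts ran from 20344364 to 26824123 in the DMSO libraries and from 27325963 to 43562330 in the ABT-263 libraries, so that every ABT-263 library was the larger. Each library was 1 mouse, and p-values measure the spread between mice.

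Cells build cholesterol from acetyl-CoA by way of mevalonate, farnesyl diphosphate, squalene and lanosterol, and they build fatty acids from the same acetyl-CoA through malonyl-CoA. Both routes are switched on by SREBP transcription factors, which stay in the endoplasmic reticulum with the escort protein Scap and the anchors Insig1 and Insig2 while sterols are plentiful, and are released to the nucleus when sterols run low. In skin, sebaceous glands make large amounts of lipid for sebum, and the upper epidermis makes cholesterol and fatty acids for the lipid layers of the water barrier.

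Few of these genes changed with ABT-263. By edgeR's quasi-likelihood test with Benjamini-Hochberg adjustment over all genes tested, 3 of the 28 passed an adjusted p of 0.05, against 24.2% of all genes. Of the 28, 1 rose (Idi1), against 12.4% of all genes, and 2 fell (Mvd and Fdft1), against 11.7% of all genes. In CPM (counts scaled to library size), the mice of the 2 groups did not overlap for 2 of the 28 genes, Idi1 and Fdft1, against 37.1% of all genes. The median log2 fold change was -0.33 over the 28 genes and 0.0022 over all genes tested, and 18 of the 28 estimates were negative. At an unadjusted p under 0.05, 7 of the 28 genes passed, a share of 25.0%, against 40.1% of all genes. The median was -0.10 without ABT-263 mouse 476 and -0.13 without DMSO mouse 480, and stayed negative with each mouse left out. The count rested on single mice: leaving out DMSO mouse 482 or ABT-263 mouse 478 left 0 genes past the threshold, leaving out DMSO mouse 483 or ABT-263 mouse 476 left 1 (Idi1), leaving out DMSO mouse 480 left 2 (Idi1 and Sc5d), leaving out DMSO mouse 481 gave 4 (Acat2, Mvd, Fdft1 and Cyp51), and leaving out ABT-263 mouse 477 gave 4 (Mvd, Idi1, Fdft1 and Elovl6).

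**Figure D1:**
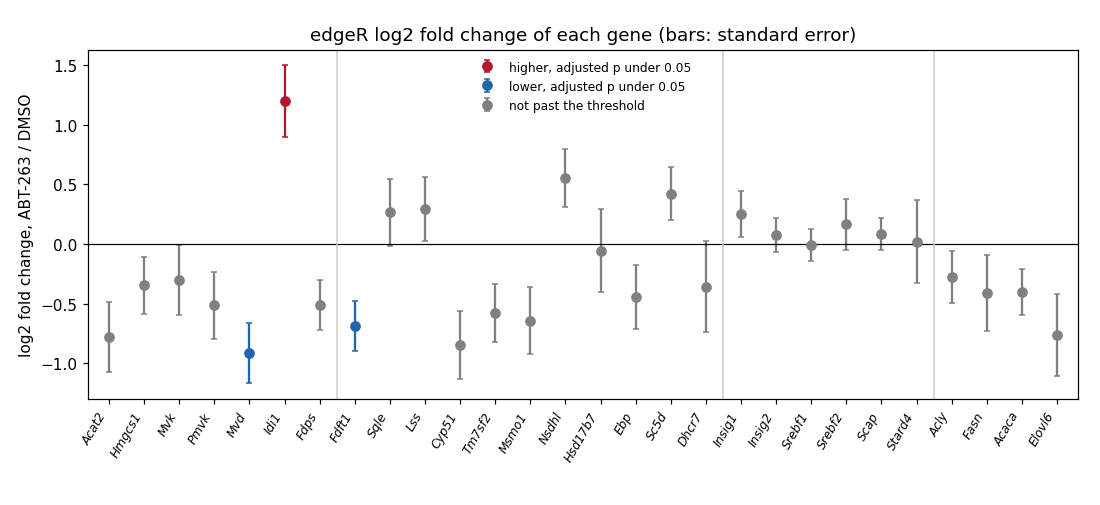
The plot gives the edgeR log2 fold change of ABT-263 over DMSO for each of the 28 genes, with bars of 1 standard error and grey lines between the mevalonate enzymes, the squalene and sterol enzymes, the regulators and the fatty acid enzymes. Idi1 stands alone at 1.20, Mvd and Fdft1 lie at -0.91 and -0.69, the regulators lie near 0 and all 4 fatty acid enzymes lie below 0.

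The DNA before the starts of 5 genes is shown to let the pathway's shared promoter elements be read beside the values: Mvd and Idi1, which changed in opposite directions, Cyp51, Hmgcs1, in which a sterol element was matched, and Fasn of the fatty acid arm. The sequences are the 250 bases before the start given by RefSeq on GRCm38.p6, read along the gene: Mvd at chr8:122443423-122443672 on the minus strand, Idi1 at chr13:8885356-8885605 on the plus strand, Cyp51 at chr5:4104698-4104947 on the minus strand, Hmgcs1 at chr13:119690101-119690350 on the plus strand and Fasn at chr11:120824548-120824797 on the minus strand. Capitals mark, on either strand, the sterol regulatory element core TCACNCCAC, the CCAAT box bound by NF-Y (ATTGG on the other strand) and the GC box GGGCGG bound by Sp1 (CCGCCC on the other strand).
Mvd: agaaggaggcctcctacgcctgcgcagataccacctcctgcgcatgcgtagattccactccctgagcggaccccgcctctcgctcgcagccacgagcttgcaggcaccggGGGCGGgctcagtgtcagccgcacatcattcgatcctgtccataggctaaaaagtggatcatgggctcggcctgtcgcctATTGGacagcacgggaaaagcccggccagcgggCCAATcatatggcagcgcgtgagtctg
Idi1: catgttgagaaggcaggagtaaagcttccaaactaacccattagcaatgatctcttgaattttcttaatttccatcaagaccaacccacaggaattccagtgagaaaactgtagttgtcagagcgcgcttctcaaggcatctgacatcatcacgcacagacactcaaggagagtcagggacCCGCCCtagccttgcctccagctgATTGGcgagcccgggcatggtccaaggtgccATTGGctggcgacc
Cyp51: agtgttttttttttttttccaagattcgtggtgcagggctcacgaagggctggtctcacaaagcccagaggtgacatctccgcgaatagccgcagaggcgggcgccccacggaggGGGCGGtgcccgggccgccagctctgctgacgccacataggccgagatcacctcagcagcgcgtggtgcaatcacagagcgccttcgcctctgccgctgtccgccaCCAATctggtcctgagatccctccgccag
Hmgcs1: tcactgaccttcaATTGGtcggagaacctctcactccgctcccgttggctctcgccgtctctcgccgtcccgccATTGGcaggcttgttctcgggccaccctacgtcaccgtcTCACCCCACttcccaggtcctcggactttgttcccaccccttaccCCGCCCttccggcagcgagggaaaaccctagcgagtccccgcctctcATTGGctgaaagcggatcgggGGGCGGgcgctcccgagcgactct
Fasn: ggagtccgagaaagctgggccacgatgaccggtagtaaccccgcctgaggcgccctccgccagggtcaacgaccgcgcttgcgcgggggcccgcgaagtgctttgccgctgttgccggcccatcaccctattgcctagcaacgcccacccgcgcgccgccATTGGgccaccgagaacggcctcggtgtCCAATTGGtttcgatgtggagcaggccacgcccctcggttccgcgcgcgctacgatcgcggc
Gene positions given elsewhere are from GENCODE M21, whose starts can differ from those of RefSeq. By GENCODE, the Idi1 window runs past the gene's start at 8885501 and the Cyp51 window past its start at 4104746. Mvd and Idi1 each held 2 CCAAT boxes and 1 GC box, and Cyp51 held 1 of each. Hmgcs1 held 3 CCAAT boxes, 2 GC boxes and the sterol element, which ran from 137 to 129 bases before the start. Fasn held 3 CCAAT matches, of which a pair overlap as CCAATTGG, and no GC box.

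Promoters were matched for 24 of the 28 genes, with 32 entries among them, and no entry was matched for Fdps, Fdft1, Sqle or Stard4. CCAAT was present in 19 of the 24 genes and in 37.5% of the 27025 genes with an entry. GGGCGG was present in 20 of the 24 genes and in 35.4% of all genes. All 9 matched squalene and sterol enzymes held both of these motifs, whereas 1 of the 4 fatty acid enzymes held CCAAT and 1 held GGGCGG. TCACNCCAC was found in Hmgcs1 alone among the 24, and in 1.22% of all genes. These are matches of letters in a fixed window, and a gene without a match may hold its element elsewhere.

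The mevalonate steps held both directions of change. 6 of the 7 estimates were negative and the median log2 fold change was -0.51, yet the single gene that rose also belonged to this group. Mvd, mevalonate diphosphate decarboxylase, makes isopentenyl diphosphate, the building block of all sterols, and lies at chr8:122433601-122443422. Its level was 262.8, 139, 209 and 242 CPM in DMSO mice 480, 481, 482 and 483, and 86.9, 139 and 114 CPM in ABT-263 mice 476, 477 and 478. The ABT-263 mice sat at the low end, and mouse 477 lay level with the lowest DMSO mouse, 481. Mvd fell by 0.91 on the log2 scale (SE 0.25, adjusted p = 0.0349, edgeR). The call held without mouse 481 or 477 and was lost without any one of mice 480, 482, 483, 476 and 478, with adjusted p between 0.0589 and 0.103 by edgeR.

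Idi1, isopentenyl-diphosphate delta-isomerase, converts that building block to its reactive isomer and lies at chr13:8885501-8892451. Its level was 2.74, 2.65, 3.90 and 5.38 CPM in DMSO mice 480 to 483, and 7.54, 7.06 and 10.6 CPM in ABT-263 mice 476 to 478. Every ABT-263 mouse lay above every DMSO mouse, and the log2 fold change was 1.20 (SE 0.30, adjusted p = 0.0264, edgeR). The call was lost without mouse 481, 482 or 478, with adjusted p of 0.0557, 0.0652 and 0.0924 by edgeR. Idi1 had by far the fewest counts of the 28 genes, from 63 to 494 per library. Per kilobase of exon, its level in DMSO skin was 1.05 RPKM, against 115 RPKM for Mvd, the step before it.

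A processed pseudogene of Idi1, Gm13502, was also higher after ABT-263. Gm13502 lies at chr2:53696121-53696804 on the minus strand, and all of its 684 bases equal bases 528 to 1211 of the 3027-base Idi1 transcript. Its first 120 bases, at chr2:53696685-53696804 and read along the minus strand, are printed as an example of the sequence that the genes share.
Gm13502: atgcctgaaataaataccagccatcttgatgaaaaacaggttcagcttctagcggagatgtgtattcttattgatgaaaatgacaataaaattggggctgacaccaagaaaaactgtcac
Its level was 0.90, 0.72, 0.72 and 0.99 CPM in DMSO mice 480 to 483, and 6.01, 5.34 and 10.4 CPM in ABT-263 mice 476 to 478. These groups did not overlap either, and the log2 fold change of 3.12 (SE 0.31, adjusted p = 0.00578, edgeR) was larger than that of Idi1. The authors counted uniquely aligned pairs, and how the pairs of the shared stretch were divided between the genes was not tested. The Idi1 change is uncertain in that sense.

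Acaca, of the fatty acid arm, had a copy that went the other way from the gene itself. Gm5182 at chr12:10152142-10158233 matches Acaca at 99.2% over 6118 bases. It stood at 0.16, 0.084, 0.15 and 0.33 CPM in DMSO mice 480 to 483, and at 2.36, 1.54 and 5.78 CPM in ABT-263 mice 476 to 478 (log2 fold change 4.11, SE 0.61, adjusted p = 0.00713, edgeR). Acaca stood far above it, at 55.4 ± 9.63 CPM (SD, n = 4) under DMSO and 41.8 ± 9.05 CPM (SD, n = 3) under ABT-263. In all, 5 of the 28 genes had a copy of at least 95% identity over at least 300 bases outside their own locus: Idi1, Acaca, Acat2, Elovl6 and Fdft1. Gm6781, a processed pseudogene of Fdft1, had a log2 fold change of 0.77 (SE 0.27, adjusted p = 0.0717, edgeR). Gm11295, of Elovl6, averaged 0.044 CPM under DMSO and 0.46 CPM under ABT-263, too low to be tested. Every processed pseudogene among these copies that had counts was thus higher by its mean, whichever direction its gene took. The cause was not tested.

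**Figure D2:**
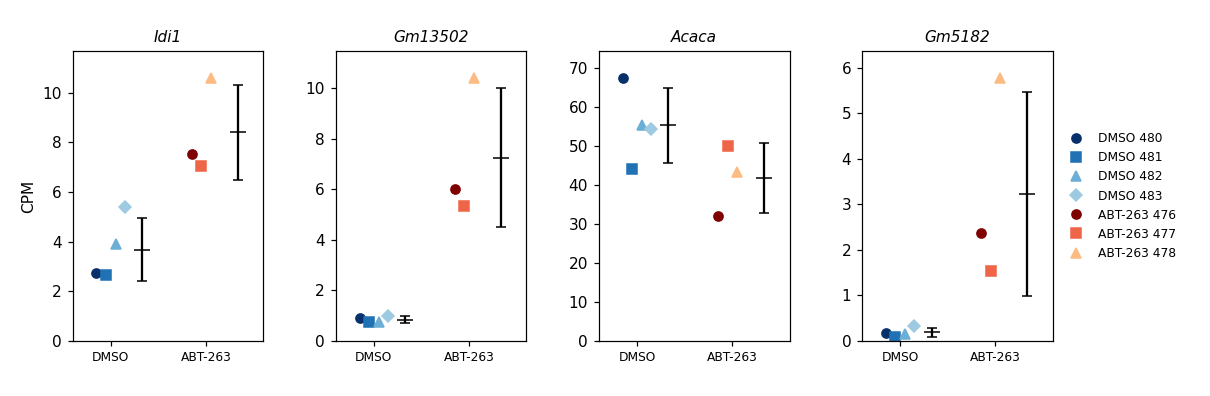
The panels plot CPM, on linear axes from 0, of Idi1, its pseudogene Gm13502, Acaca and its pseudogene Gm5182 in each mouse, with the group mean and SD in black. Idi1 and both pseudogenes are higher in every ABT-263 mouse than in any DMSO mouse, whereas Acaca overlaps between the groups.

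The other 5 mevalonate enzymes did not pass the test. Acat2, the thiolase that joins acetyl-CoA units, was at 189 ± 56.0 CPM (SD, n = 4) under DMSO and 110 ± 33.5 CPM (SD, n = 3) under ABT-263, with a log2 fold change of -0.78 (adjusted p = 0.0853, edgeR). Hmgcs1, which makes HMG-CoA, was at 380.1 ± 47.5 and 299 ± 93.2 CPM, and Mvk and Pmvk, the kinases of mevalonate, had log2 fold changes of -0.30 and -0.52. Fdps, farnesyl diphosphate synthase, had a log2 fold change of -0.51, and 26.7% of its exon bases lie under another gene model on the same strand. In all 5 genes ABT-263 mouse 476 had the lowest level of the 7 mice, and ABT-263 mouse 477 lay within the DMSO range.

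The squalene and sterol enzymes had a median log2 fold change of -0.36, with 7 of 11 estimates negative, and 1 gene changed. Fdft1, squalene synthase, makes the first committed sterol intermediate and lies at chr14:63145150-63179578. Its level was 217, 142, 169 and 184 CPM in DMSO mice 480 to 483, and 85.2, 138 and 108 CPM in ABT-263 mice 476 to 478. Every ABT-263 mouse lay below every DMSO mouse, by a narrow gap between ABT-263 mouse 477 and DMSO mouse 481. Fdft1 fell by 0.69 on the log2 scale (SE 0.21, adjusted p = 0.0452, edgeR), and the call was lost without any one of mice 480, 482, 483, 476 and 478, with adjusted p between 0.0745 and 0.135. Fdft1 shares 774 bases with Ctsb, a lysosomal protease on the opposite strand, which rose (log2 fold change 1.02, SE 0.25, adjusted p = 0.0265, edgeR). Pairs were counted on the same strand per the study's methods.

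Cyp51, which removes the 14-alpha methyl group of lanosterol, came close. Its level was 624, 348, 566 and 676 CPM in DMSO mice 480 to 483, and 211, 390 and 321 CPM in ABT-263 mice 476 to 478. ABT-263 mouse 477 lay above DMSO mouse 481, and the log2 fold change of -0.85 (SE 0.29) missed the threshold (adjusted p = 0.0641, edgeR). It passed in a DESeq2 Wald test, which also used its own scaling and filters, and with length and GC trends removed. Msmo1, the C4-methylsterol oxidase, was at 495 ± 122 CPM (SD, n = 4) and 317 ± 102 CPM (SD, n = 3), and Tm7sf2, a sterol C14 reductase, had a log2 fold change of -0.58, while 12.1% of its exon bases lie under Vps51 on the same strand. Ebp, the sterol isomerase, and Dhcr7, the last reductase of one branch, had log2 fold changes of -0.44 and -0.36, and Hsd17b7, a sterol ketone reductase, had -0.057, with a sign that changed when single mice were left out.

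The positive estimates of the sterol arm, apart from Idi1, belonged to 4 enzymes that act after squalene, and none passed the test. Sqle, squalene epoxidase and a rate-controlling step, stood at 157, 73.7, 105 and 111 CPM in DMSO mice 480 to 483, and at 91.3, 161 and 149 CPM in ABT-263 mice 476 to 478. Mouse 476 lay inside the DMSO range and the other ABT-263 mice at its top, with a log2 fold change of 0.26 (adjusted p = 0.515, edgeR). Lss, lanosterol synthase, had 0.29, Nsdhl, a sterol C4 decarboxylase, 0.55 (adjusted p = 0.128) and Sc5d, the sterol C5 desaturase, 0.42 (adjusted p = 0.195) by the same edgeR test. Nsdhl stood at 20.3 ± 5.01 CPM (SD, n = 4) and 29.8 ± 8.004 CPM (SD, n = 3), and Sc5d at 29.8 ± 9.15 and 39.9 ± 4.63 CPM.

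None of the 6 regulators and carriers passed the test, and their log2 fold changes lay between -0.010 and 0.25. Srebf1 encodes the SREBP forms that act most on fatty acid genes, and stood at 114 ± 11.6 CPM (SD, n = 4) under DMSO and 113 ± 12.6 CPM (SD, n = 3) under ABT-263. Srebf2 encodes the form that acts most on sterol genes, and stood at 117 ± 21.9 and 131 ± 35.2 CPM. Scap had a log2 fold change of 0.080 and Insig2 of 0.077. Insig1, itself a target of SREBP, had the largest estimate of the group, 0.25 (SE 0.19, adjusted p = 0.356, edgeR). Stard4, which carries cholesterol between membranes, had 0.017. The estimates of Srebf1, Srebf2, Insig2 and Stard4 changed sign when single mice were left out, so no direction can be given for them.

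All 4 fatty acid enzymes had negative estimates, and none passed the test. Acly, which makes cytosolic acetyl-CoA from citrate for both arms, stood at 310.4 ± 63.0 CPM (SD, n = 4) under DMSO and 256 ± 50.7 CPM (SD, n = 3) under ABT-263, with a log2 fold change of -0.28. Acaca, which makes malonyl-CoA, had -0.41 (adjusted p = 0.157, edgeR), and Fasn, the synthase that builds palmitate, also had -0.41 (adjusted p = 0.369, edgeR). Elovl6 lengthens palmitate and had the highest level per length of all 28 genes in DMSO skin, at 134 RPKM. Its level was 990, 561, 846 and 1039 CPM in DMSO mice 480 to 483, and 303, 759 and 456 CPM in ABT-263 mice 476 to 478. ABT-263 mouse 477 lay well inside the DMSO range, and the log2 fold change was -0.76 (SE 0.34, adjusted p = 0.135, edgeR).

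**Figure D3:**
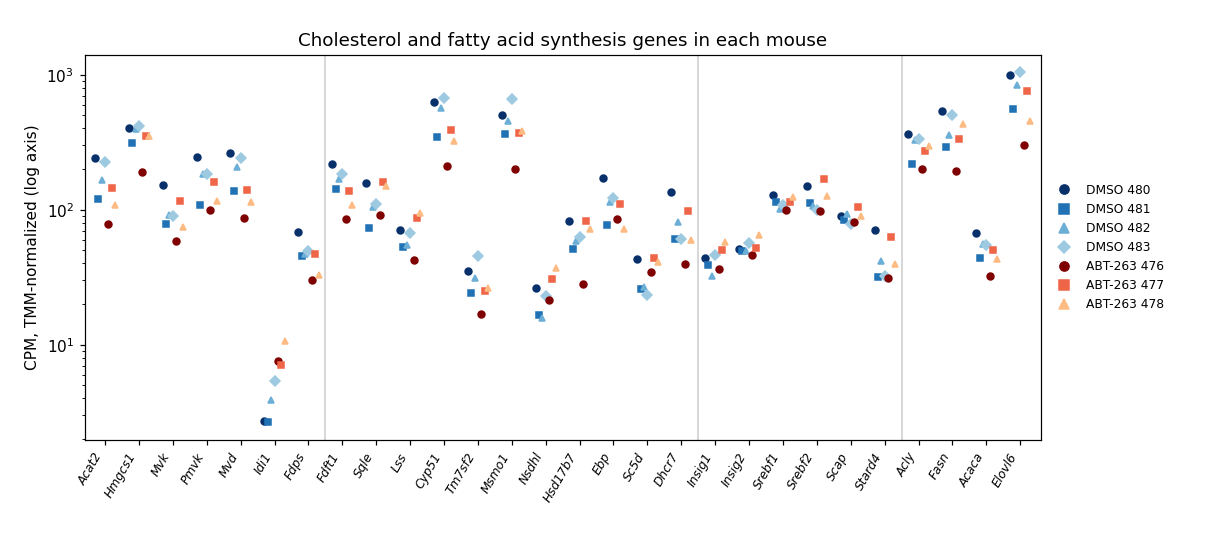
The plot gives CPM on a log axis for each gene in each mouse, DMSO mice in blue and ABT-263 mice in red, with grey lines between the 4 roles. ABT-263 mouse 476 (dark red circles) is lowest for 21 of the 28 genes and DMSO mouse 480 (dark blue circles) highest for 13, and the colours overlap in all genes but Idi1 and Fdft1.

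Within each group the pathway went up and down together from mouse to mouse. ABT-263 mouse 476 was lowest of the 7 mice for 21 of the 28 genes and lowest of its group for 26. DMSO mouse 481 was lowest of its group for 21 genes, and DMSO mouse 480 was highest of its group for 19. The highest DMSO mouse exceeded the lowest by 1.16-fold for Insig2 and by up to 2.27-fold for Pmvk, and within the ABT-263 group the ratio ran from 1.25-fold for Srebf1 to 2.93-fold for Hsd17b7. For each arm, log2(CPM + 1) was centred on each gene's mean over the 7 mice and averaged. The sterol arm stood at 0.45, -0.29, 0.055 and 0.22 in DMSO mice 480 to 483, and at -0.58, 0.17 and -0.030 in ABT-263 mice 476 to 478. The fatty acid arm stood at 0.51, -0.25, 0.19 and 0.39 in the same DMSO mice, and at -0.77, 0.026 and -0.086 in the ABT-263 mice. The groups overlapped in both arms: the sterol arm was 0.25 lower after ABT-263 by its mean, against a spread of 0.74 within the DMSO group and 0.75 within the ABT-263 group, and the fatty acid arm was 0.48 lower, against 0.76 and 0.80.

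Sebocyte markers moved in part with the arms, and so did markers of the upper epidermis. The mean centred level of 12 sebocyte genes stood at 0.27, -0.31, 0.28 and 0.55 in DMSO mice 480 to 483, and at -0.76, 0.050 and -0.084 in ABT-263 mice 476 to 478. Mouse 476 was again the lowest of the 7 and mouse 481 the next, but mouse 483 and not 480 was the highest. Suprabasal keratinocyte markers (9 genes), centred the same way, stood at 0.90, -0.22, 0.36 and -0.43 in DMSO mice 480 to 483. In ABT-263 mice 476 to 478 they stood at -1.41, 0.60 and 0.20. There mouse 480 was highest and mouse 476 lowest, as in both arms, and mouse 483 was the next lowest. Of the 12 genes, 9 had negative and 3 positive estimates, with a median log2 fold change of -0.40 over the list. Past the threshold was 1 gene, a share of 8.33% against 24.2% of all genes. It was Mc5r, a melanocortin receptor of sebaceous glands, which fell by 1.65 on the log2 scale (SE 0.20, adjusted p = 0.00619, edgeR). None of the 12 was at 0 in any library. None of the 28 synthesis genes is on the marker list, but Elovl3 and Scd3 are also on the list of fatty acid supply, elongation and desaturation. The part of sebocyte or keratinocyte content in the levels of the synthesis genes was not tested.

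The difference between the arms varied less between mice than either arm. The sterol arm minus the fatty acid arm stood at -0.059, -0.036, -0.13 and -0.17 in DMSO mice 480 to 483, and at 0.19, 0.14 and 0.057 in ABT-263 mice 476 to 478. All ABT-263 mice lay above all DMSO mice, with means of 0.13 ± 0.069 (SD, n = 3) and -0.099 ± 0.061 (SD, n = 4), a difference of 0.23 on the log2 scale. The separation varied with the sterol genes that were averaged. Without Idi1 alone the difference was 0.16 and the groups overlapped, whereas without all 7 mevalonate enzymes, Idi1 among them, it was 0.28 and the groups did not overlap. With the median over genes in place of the mean the difference was 0.071 and the groups overlapped. Dropping any 1 mouse gave a difference of 0.20 to 0.27. That the groups then stayed apart was fixed in advance, because they did not overlap with all mice kept, and nothing is drawn from it. These are descriptions, and no p-value was computed for the arms.

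**Figure D4:**
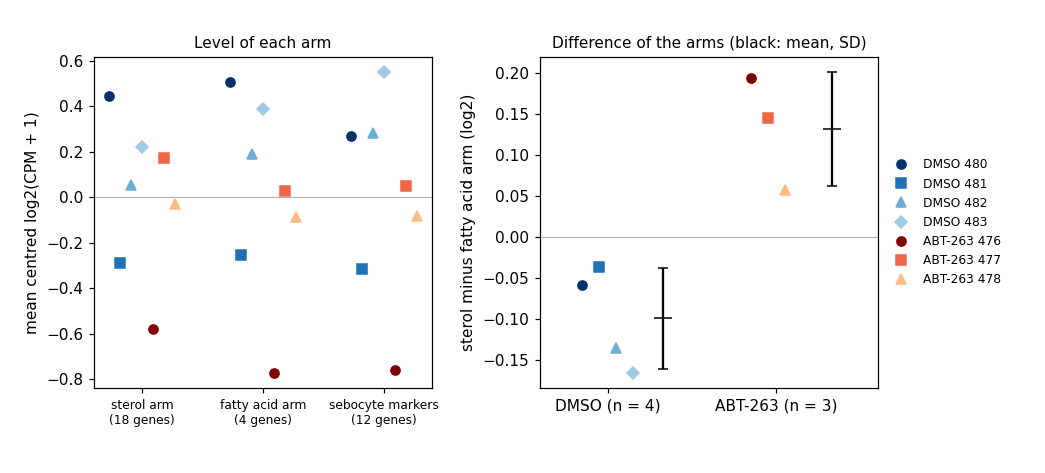
The left panel plots the mean centred log2(CPM + 1) of the sterol arm, the fatty acid arm and the sebocyte markers in each mouse, and the right panel the sterol arm minus the fatty acid arm with group mean and SD in black. Mice 476 and 481 are lowest in all 3 sets on the left, where the groups overlap, while on the right the DMSO mice lie between -0.17 and -0.036 and the ABT-263 mice between 0.057 and 0.19.

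Relative to the mean of the 28 genes in the same mouse, more genes separated the groups than in CPM. On this scale 9 of the 28 genes did not overlap, against 18.4% of all genes tested. Idi1, Sqle, Nsdhl and Sc5d were higher in every ABT-263 mouse, a share of 14.3% against 15.0% of all genes. Acat2, Mvd, Fdft1, Cyp51 and Acaca were lower in every ABT-263 mouse, a share of 17.9% against 3.43% of all genes. Sqle stood 0.32, -0.10, 0.12 and 0.052 from the mean in DMSO mice 480 to 483, and 0.49, 0.60 and 0.65 from it in ABT-263 mice 476 to 478. Fdft1, the enzyme just before it, stood 0.79, 0.84, 0.80 and 0.78 above the mean in the DMSO mice, and 0.39, 0.38 and 0.20 above it in the ABT-263 mice. In counts not corrected for length, Sqle was thus the lower of the pair in every DMSO mouse and the higher in every ABT-263 mouse. Per kilobase of exon, Sqle was the lower by its mean in both groups. It averaged 20.1 RPKM against 42.1 for Fdft1 under DMSO, and 24.1 against 26.1 under ABT-263. Because the mean fell and rose with the levels of all 28 genes, values on this scale are shares of the pathway and not changes in level. Variation that the 28 genes share cancels for them on this scale, but not for other genes. The mean itself differed by -0.21 between ABT-263 and DMSO, which raises every gene on this scale after ABT-263. The shares of all genes are therefore no like background for the 28, and no conclusion is drawn from them.

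**Figure D5:**
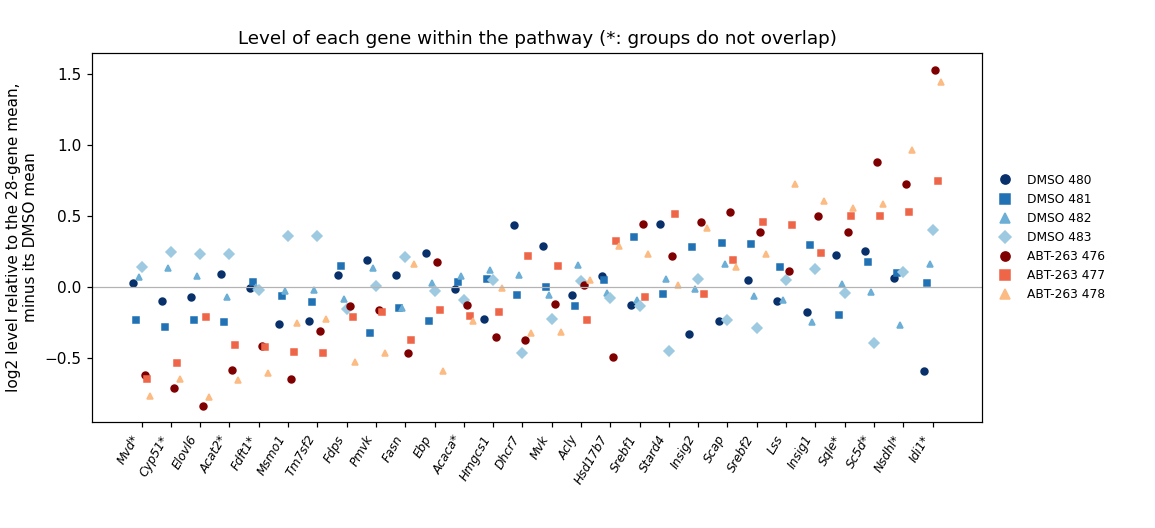
The plot gives log2(CPM + 1) of each gene minus the mean of the 28 genes in the same mouse, shifted so that the DMSO mean of each gene is 0, with genes ordered by the group difference and those whose groups do not overlap starred. Mvd lies at the low end with a difference of -0.68 and Idi1 at the high end with 1.24, and 9 genes are starred.

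Around the pathway, 70 further genes in 5 lists were examined, of which 10 rose and 4 fell, and their median log2 fold change was 0.066. In sterol uptake, storage and efflux, 6 of 17 genes rose and none fell, a share of 35.3% against 24.2% of all genes, with a median of 0.57. Scarb1, a receptor that takes up cholesterol from lipoproteins, stood at 51.6 ± 10.1 CPM (SD, n = 4) under DMSO and 124 ± 25.5 CPM (SD, n = 3) under ABT-263, with a log2 fold change of 1.26 (SE 0.20, adjusted p = 0.00761, edgeR). Cyp7b1, which makes oxysterols more polar, had a log2 fold change of 3.14 (SE 0.62, adjusted p = 0.0144, edgeR). In fatty acid supply, elongation and desaturation, 3 of 22 genes fell and none rose, a share of 13.6% against 24.2% of all genes, with a median of -0.28. Slc25a1, which exports citrate from mitochondria for Acly, fell by 1.04 on the log2 scale (adjusted p = 0.0278, edgeR). Tecr, the last reductase of fatty acid elongation, fell by 1.01 (adjusted p = 0.0375) and Acacb, the acetyl-CoA carboxylase form tied to fatty acid oxidation, fell by 0.83 (adjusted p = 0.0306) by the same edgeR test. In all 3 every ABT-263 mouse lay below every DMSO mouse, with mouse 476 lowest. Of the 22 genes of this list, 5 did not overlap between the groups in CPM, a share of 22.7% against 37.1% of all genes.

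In the remaining lists of the pathway's surroundings, shares past the threshold are again set against 24.2% of all genes. The 12 genes of other sterol and isoprenoid synthesis had 2 that rose and 1 that fell, a share of 25.0%. Pdss1, which starts the side chain of ubiquinone, rose by 1.22 on the log2 scale and Nus1, of dolichol synthesis, by 0.71, while Pggt1b, a subunit of a protein prenyltransferase, fell by 0.51. Among 10 genes of SREBP processing and sterol sensing 1 rose, Mbtps1, the protease that makes the first cut in SREBP, with a log2 fold change of 0.45 (SE 0.13, adjusted p = 0.039, edgeR). Among 9 genes of fatty acid activation and triglyceride synthesis 1 rose, a share of 11.1%. It was Acsl1, an acyl-CoA synthetase, with a log2 fold change of 0.96 (SE 0.26, adjusted p = 0.031, edgeR).

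Markers of skin were present in every library, and their summed levels differed between mice. The counts of markers higher or lower past the threshold are set against 12.4% higher and 11.7% lower among all genes tested. Summed CPM of basal keratinocyte markers (led by Krt14 and Krt5) ran from 18201 to 31227 under DMSO and 13873 to 35946 under ABT-263, with 1 of 7 genes higher and 1 lower. For suprabasal keratinocytes (Lor and Krt10) the sums ran from 13699 to 39652 and from 6540.5 to 25750.0, with 1 of 9 higher and 1 lower, and mouse 476 was lowest. Sebocyte markers (Krt79 and Fa2h) summed to 2480.0 to 4461 and 1683 to 3840.3, and adipocyte markers (Fabp4 and Cfd) to 877 to 2837 and 1041 to 3769, with 1 of 11 higher. Fast muscle markers (Acta1 and Tnnt3) were lower in every ABT-263 mouse, at 31585 to 43841 against 44023 to 87610.0, with 4 of 11 genes lower. Markers of macrophages (C1qa and C1qb, 6 of 10 higher), neutrophils (S100a9 and S100a8, 3 of 6 tested) and endothelium (Pecam1 and Tie1, 5 of 6) summed higher in every ABT-263 mouse, at 1277.5 to 3119.8, 5098 to 8377 and 431 to 542, against 414 to 1219, 100.4 to 1822 and 146 to 325. Fibroblast markers (Dcn and Thy1) had 2 of 7 genes higher, at 982 to 1642 and 1549 to 2397, and hair follicle markers (Krt71 and Krt25) had none of 10 tested past the threshold and stood out in DMSO mouse 481 at 3296 and ABT-263 mouse 478 at 628, against 25.3 to 53.6 in the other 5 mice. Of the 92 markers, 4 were at 0 in some library and none in every library. The part of these cell types in the values of the synthesis genes was not tested.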

How the data were processed

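Bulk RNA sequencing of skin from 7 mice was analyzed. The authors aligned reads to mm10 with STAR 2.7.9a, counted uniquely aligned proper pairs on the same strand per Ensembl gene (annotation build 109) with featureCounts of Subread 1.6.2, left out mitochondrial genes and deposited these raw counts without a filter. They also deposited log2-like variance-stabilized values, computed with DESeq2 1.23.10, which served as an alternative for the arms. Symbols, coordinates, exon lengths and copies of genes were taken from GENCODE M21 on GRCm38, where 55190 of the 55450 identifiers were found. Promoters were taken from RefSeq on GRCm38.p6.

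In R 4.3.3, counts were filtered (filterByExpr, 17959 genes of the 30645 with a count), scaled by TMM and compared between 3 ABT-263 and 4 DMSO mice by the two-sided quasi-likelihood test of edgeR 4.0.16 with no covariate and Benjamini-Hochberg adjustment over all genes tested, with a threshold of 0.05. Scripts were tested on simulated data. CPM and RPKM are TMM-scaled. Arms used log2(CPM + 1). As alternatives, the Wald test and the size factors of DESeq2 1.42.0 were used, with no filter, at least 10 counts in every library, removal of length and GC trends (mgcv 1.9.3), other pseudocounts, the deposited log2-like values, a median, other arm members and leaving out each mouse. Labels name no batch. All 28 genes are named, those past the threshold with each mouse's value, with up to 3 genes per direction of each surrounding list past the threshold with the smallest p, and the leading pair of each marker list. The genes and lists were chosen with earlier results of these data known. The ratios under other observations and the arm without Idi1 were chosen after their values were seen. Depth of 20344364 or more counts per library gave the 28 genes at least 63 counts each.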

Additional observations from a re-analysis of the deposited data

How the results depend on the processing

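No paired analysis was possible because the groups share no replicate numbers. Across the 5 other settings that keep all mice, the number of the 28 genes past the threshold was 2 (no filter, where Fdft1 had an adjusted p of 0.0522 by edgeR's quasi-likelihood test), 3 or 4 (Cyp51 was added by the DESeq2 Wald test with its own scaling and filters, adjusted p = 0.0251, and by removal of length and GC trends, adjusted p = 0.0452 with edgeR). Genes past the threshold numbered 3388 to 5693 of all genes in these settings, against 4342, and 1735 to 4169 with 1 mouse left out. With 1 mouse left out, 0 to 4 of the 28 genes passed, Mvd in 2 of 7 fits, Idi1 in 4 and Fdft1 in 2, with log2 fold changes of -1.08 to -0.75, 1.00 to 1.44 and -0.86 to -0.53. The sign changed for Srebf1 (0.0031 by the Wald test, 0.023 with no filter, -0.084 to 0.077 with 1 mouse left out), Insig2 (-0.068 with length and GC trends removed, -0.063 to 0.19), Stard4 (-0.14 with those trends removed, -0.30 to 0.34), Hsd17b7 (-0.33 to 0.29) and Srebf2 (-0.033 to 0.34), and the cause was not tested. Of the 28 genes' estimates, 133 of 140 under the other settings and 168 of 196 with 1 mouse left out kept both direction and side of the threshold. The difference between the arms was 0.071 with the median, 0.16 without Idi1, and 0.20 to 0.28 under the remaining alternatives, all in the same direction.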

Other observations

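Ratios of CPM between enzymes of the sterol arm in the same mouse were taken after the values had been seen, and carry no test. Sqle over Fdft1, the enzymes that use and make squalene, stood at 0.72, 0.52, 0.62 and 0.60 in DMSO mice 480 to 483, and at 1.07, 1.17 and 1.38 in ABT-263 mice 476 to 478. Sqle over Cyp51 stood at 0.25, 0.21, 0.19 and 0.16 in the DMSO mice, and at 0.43, 0.41 and 0.46 in the ABT-263 mice. Nsdhl over Cyp51 stood at 0.042, 0.048, 0.028 and 0.034 in the DMSO mice, and at 0.10, 0.079 and 0.12 in the ABT-263 mice. None of these ratios overlapped between the groups, and the share of other gene pairs without overlap was not computed.

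The ratios between the paired regulators did overlap. Srebf1 over Srebf2 stood at 0.87 to 1.09 under DMSO and 0.68 to 1.02 under ABT-263, and Insig1 over Insig2 at 0.66 to 0.86 under DMSO and 0.80 to 0.95 under ABT-263.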
